A study of Mus musculus with 4 samples.

Results

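Histone H3 acetylated at lysine 9 (H3K9ac) was mapped by chromatin immunoprecipitation and sequencing in mouse bone marrow-derived (BM-derived) myeloid-derived suppressor cells (MDSC) that had been made senescent in vitro. The groups were CM, whose full name the labels leave out, and CM plus Romidepsin, each represented by 1 immunoprecipitated library and 1 input library. Sex, strain, age, dose, time and any pooling are not given in the sources used here, and the input libraries were not analysed here. The regions described are romidepsin peaks inside protein-coding genes that lacked a CM peak. They were selected on the peak calls themselves. A member was a romidepsin peak shorter than 5000 bp, more than 2 kb from any CM peak, that overlapped a gene whose RefSeq span, widened by 1 kb on either side, held no CM peak. The rule found 7431 members, 7.19% of the 103336 romidepsin peaks, set against a CM list of 16419 peaks. They lay in 2965 host genes, 29.2% (exact 95% interval 28.3 to 30.1) of the 10160 protein-coding genes without a CM peak. A gene without a CM peak is a gene without a listed peak, which does not show that it carried no H3K9ac. The read depth of both libraries is unknown, and more reads let weaker peaks pass the caller's threshold. With 1 library per condition, no value has a replicate check and no test was run.

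H3K9ac is laid down by acetyltransferases and taken off by histone deacetylases, and in untreated cells it is found mainly at the promoters of active genes. Romidepsin inhibits class I histone deacetylases, so that acetyl marks are removed more slowly. Acetylation inside a gene can mark an internal promoter or an intronic enhancer, and the peak lists do not tell these apart. MDSC are immature myeloid cells that restrain T cells. The cell type label was checked against myeloid markers: 18 of 20 marker genes, among them Itgam, Spi1 and Csf1r, held a CM peak within their span or 1 kb of it, and S100a9 and Ly6g did not. Among genes of other cells that a marrow culture can hold, a CM peak was listed for 8 of 38 T, B and NK cell genes, 6 of 10 dendritic cell genes, 5 of 16 mast cell, erythroid and megakaryocyte genes and 6 of 20 stromal and endothelial genes. Over all protein-coding genes a CM peak was listed for 11727 of 21887. The part of other cells in the members was not tested.

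Many members lay over the start of their host gene, and the promoters they covered ranged from CpG-rich to nearly free of CpG. The sequences below are the 250 bases before the annotated start, 5′ to 3′, from RefSeq on GRCm38.p6, the assembly that mm10 represents. Capitals mark CpG dinucleotides, the sites that are methylated in many silent genes. The first set is richer in CpG than the second, which follows below it. Igf2bp2 encodes an RNA-binding protein that stabilises mRNAs (chr16:22163300-22163549 on the minus strand). Gata2 encodes a transcription factor of blood stem and mast cells (chr6:88193641-88193890 on the plus strand). Tbx21 encodes T-bet, the transcription factor of T helper 1 and NK cells (chr11:97115332-97115581 on the minus strand). Pcdh17 encodes a neuronal cell adhesion protein (chr14:84443313-84443562 on the plus strand). Mfsd4b1, a gene of the major facilitator transporter family, held the member with the highest −log10 q (chr10:40025269-40025518 on the minus strand).
Igf2bp2: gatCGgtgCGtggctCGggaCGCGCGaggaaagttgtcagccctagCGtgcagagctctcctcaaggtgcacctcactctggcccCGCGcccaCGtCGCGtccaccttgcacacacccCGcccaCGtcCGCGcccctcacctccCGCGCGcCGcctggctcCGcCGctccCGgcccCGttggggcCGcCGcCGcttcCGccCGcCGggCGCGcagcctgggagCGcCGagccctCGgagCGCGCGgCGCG
Gata2: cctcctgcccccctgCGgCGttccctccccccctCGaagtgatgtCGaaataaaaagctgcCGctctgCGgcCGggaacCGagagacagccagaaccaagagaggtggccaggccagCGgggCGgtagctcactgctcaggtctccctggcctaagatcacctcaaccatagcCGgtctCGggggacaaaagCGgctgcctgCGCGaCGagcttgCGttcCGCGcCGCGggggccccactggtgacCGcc
Tbx21: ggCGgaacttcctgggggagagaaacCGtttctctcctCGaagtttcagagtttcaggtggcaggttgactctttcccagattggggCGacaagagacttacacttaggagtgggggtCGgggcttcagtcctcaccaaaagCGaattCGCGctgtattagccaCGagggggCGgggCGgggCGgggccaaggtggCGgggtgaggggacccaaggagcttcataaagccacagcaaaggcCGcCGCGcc
Pcdh17: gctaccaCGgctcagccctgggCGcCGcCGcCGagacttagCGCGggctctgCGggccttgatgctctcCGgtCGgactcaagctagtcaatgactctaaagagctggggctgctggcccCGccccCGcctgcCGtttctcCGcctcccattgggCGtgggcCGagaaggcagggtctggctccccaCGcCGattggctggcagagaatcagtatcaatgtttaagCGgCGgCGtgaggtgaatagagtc
Mfsd4b1: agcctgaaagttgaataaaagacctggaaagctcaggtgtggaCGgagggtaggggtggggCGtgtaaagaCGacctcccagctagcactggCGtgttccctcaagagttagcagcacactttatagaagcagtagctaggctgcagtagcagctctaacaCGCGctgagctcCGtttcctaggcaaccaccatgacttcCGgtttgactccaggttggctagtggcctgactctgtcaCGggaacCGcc
The second set is CpG-poor and belongs to immune genes. Ltf encodes lactoferrin, an iron-binding protein of neutrophil granules (chr9:111019042-111019291 on the plus strand). Il12b encodes the shared subunit of interleukins 12 and 23 (chr11:44399813-44400062 on the plus strand). Ccr3 encodes the eotaxin receptor of eosinophils, and the window precedes a start inside its span (chr9:124021721-124021970 on the plus strand).
Ltf: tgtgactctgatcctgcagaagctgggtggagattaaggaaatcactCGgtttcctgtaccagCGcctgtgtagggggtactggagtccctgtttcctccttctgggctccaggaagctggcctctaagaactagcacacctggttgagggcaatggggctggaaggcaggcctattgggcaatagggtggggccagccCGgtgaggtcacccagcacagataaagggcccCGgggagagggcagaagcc
Il12b: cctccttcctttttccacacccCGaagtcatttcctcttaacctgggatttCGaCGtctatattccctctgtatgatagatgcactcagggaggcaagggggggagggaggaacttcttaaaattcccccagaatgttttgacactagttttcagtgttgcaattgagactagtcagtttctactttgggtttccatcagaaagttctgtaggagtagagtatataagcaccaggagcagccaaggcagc
Ccr3: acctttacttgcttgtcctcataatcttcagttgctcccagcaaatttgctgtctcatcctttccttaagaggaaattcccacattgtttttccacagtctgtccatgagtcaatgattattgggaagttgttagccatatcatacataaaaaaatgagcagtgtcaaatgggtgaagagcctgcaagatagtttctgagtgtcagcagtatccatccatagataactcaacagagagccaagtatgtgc
These windows held 40 CpG at Igf2bp2, 22 at Gata2, 16 at Tbx21, 21 at Pcdh17 and 10 at Mfsd4b1, against 4 at Ltf, 3 at Il12b and 0 at Ccr3. The members over them had a fold of 3.10 at Igf2bp2, 3.62 at Gata2, 3.62 at Tbx21, 3.12 at Pcdh17 and 4.46 at Mfsd4b1. At Ltf the fold was 2.76, at Il12b 2.69 and at Ccr3 2.36. Fold here is the enrichment over background that the authors' peak caller gave, an average over the whole broad peak.

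Members were short by the rule, with a median fold close to that of the whole romidepsin list. Those over promoters reached a fold of 3 more often than the others. The median length of members was 864 bp (range 293 to 4982), their median fold 2.64 (range 2.05 to 4.49) and their median −log10 q 2.30 (range 1.07 to 8.52). Over all 103336 romidepsin peaks the medians were 957 bp, a fold of 2.64 (up to 7.22) and a −log10 q of 2.33. Equally short romidepsin peaks away from CM peaks numbered 45679 in genes that held a CM peak, with a median of 755 bp and a fold of 2.53. Outside genes they numbered 29281, with a median of 787 bp and a fold of 2.60. A fold of at least 3 was reached by 21.8% of members, 11.8% of these peaks in genes with a CM peak and 17.4% of those outside genes. Over all romidepsin peaks, of any length and distance, the share was 26.8%. Members over a promoter of a gene without a CM peak reached it in 42.2% of cases. The other members did so in 17.7%, close to the share outside genes. How many of the peaks elsewhere lay over promoters was not counted. All these shares come from the romidepsin list, so that they share 1 library and 1 depth. At the length limit, the longest member lay in Cpm, a membrane carboxypeptidase gene, at 4982 bp, and the shortest peak left out lay in Adtrp at 5013 bp. At the distance limit, the nearest member lay in Gsto2, 2013 bp from a CM peak, and the farthest peak left out lay in Cd300e at 1993 bp.

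The strongest members lay in genes of unrelated function. The highest fold was 4.49 at Vgf, which encodes a secreted neuropeptide precursor, in a 3766 bp member that ran past the higher-numbered end of the 8051 bp gene. Mcm10, which encodes a replication initiation factor, held 1 member of 2146 bp with a fold of 4.49 and a −log10 q of 8.42, over its promoter. Cblc, an epithelial ubiquitin ligase gene, held 7 members, of which the strongest had a fold of 4.48. Hapln2, a brain matrix link protein gene, and Gpr135, an orphan receptor gene, held 1 member each, with folds of 4.47 and 4.47. The Gpr135 member covered its start, and the 250 bases before that start lie in the span of L3hypdh, so that the peak cannot be assigned to either gene. Mfsd4b1 held a single 1161 bp member at its promoter with a −log10 q of 8.52. Mcm10, Cblc, Gpr135, Vgf and Mfsd4b1 held the 5 highest −log10 q values.

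Most host genes held few members. Of the 2965 hosts, 1468 held 1 member, 596 held 2 and 901 held 3 or more. The median was 2 per gene (interquartile range 1 to 3), and 84 hosts held 10 or more, with 1168 members among them. The share of genes without a CM peak that were hosts was higher for longer genes, with 2.07% in the shortest of 10 equal classes (144 to 942 bp), 46.1% in the ninth (44351 to 103412 bp) and 40.9% in the longest. The median span was 20871 bp for hosts and 6595 bp for the other 7195 genes. Density was highest in short but not in the shortest genes. It was 27.9 members per Mb of gene in the shortest class, 57.1 in the second and 100.6 in genes of 1634 to 3618 bp, and it was lower in each longer class, down to 5.54. A member counted at 1 bp of overlap, also where most of it lay outside the gene, which raises density most in short genes. Density was not adjusted for this.

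**Figure D1:**
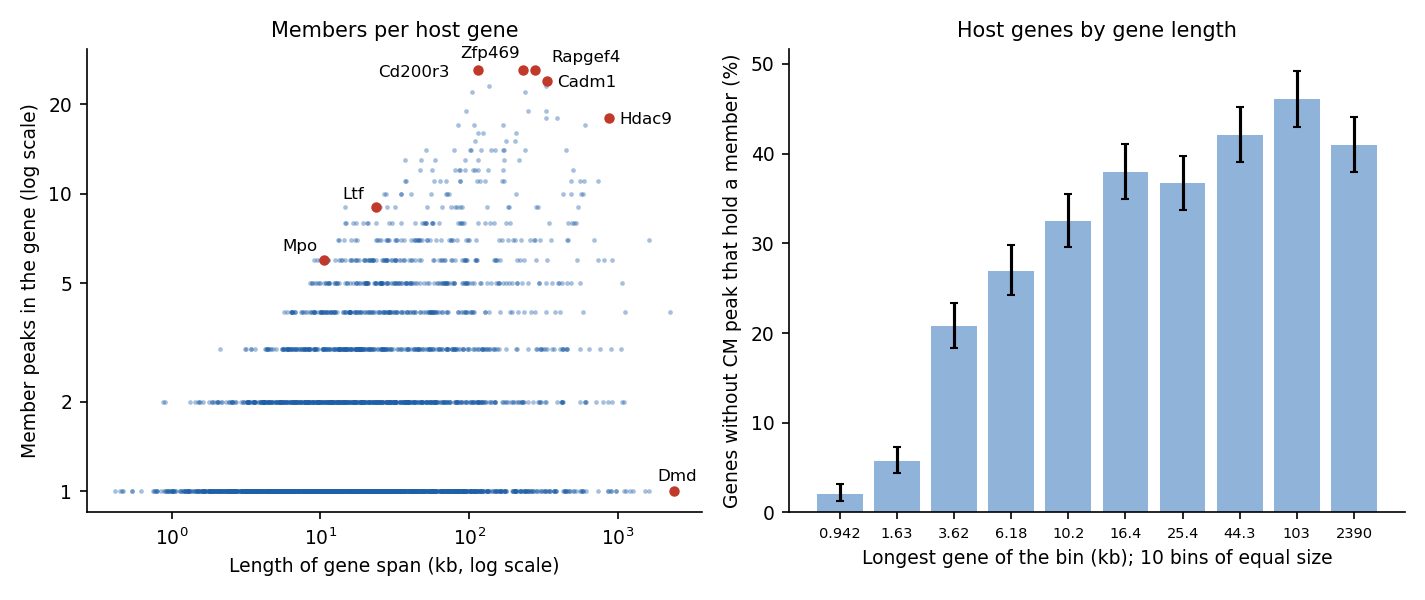
Left, members per host gene against the length of the gene span in kb, both on log axes, 1 point per host gene and 8 named genes in red. Right, percent of genes without a CM peak that hold a member, in 10 length bins of equal size, with exact 95% intervals for counting error; the share is 2.07% in the shortest bin, 46.1% in the ninth and 40.9% in the longest.

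The hosts with the most members had varied functions. Cd200r3, a member of the family of receptors that bind CD200 or pair with the adaptor DAP12, held 26 members in 114770 bp, which together covered 45.5 kb of it. Their folds ran from 2.25 to 3.52 (median 2.87), and the longest stretch was a 4797 bp peak at chr16:45028933-45033729. The Cd200r genes are related neighbours, and whether short reads were shared among them was not tested. Rapgef4, which encodes the cAMP-activated exchange factor EPAC2, also held 26, over 276260 bp, and the member at its promoter was only 314 bp long. Zfp469, a zinc finger gene linked to collagen fibrils of the cornea, held 26 with a median fold of 2.55. These 3 genes tied for the highest count, at different densities of 22.7, 9.41 and 11.3 per 100 kb.

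Cadm1, which encodes an immunoglobulin-type adhesion molecule, held 24 members although the nearest CM peak lay 560314 bp from the gene. Its strongest member (fold 3.36, 2929 bp) was at chr9:47529262-47532190, and 12 others lay between 47699330 and 47739859 of that chromosome at folds of 2.29 to 2.83. Col4a2, encoding a chain of basement membrane collagen, held 23 members with folds of 2.23 to 3.92. A 1271 bp member at chr8:11312158-11313428 (fold 2.92) spanned the start shared with Col4a1, the neighbouring chain gene on the opposite strand. Col4a1 held 12 members of its own count, that shared peak included. Gabbr2, a GABA-B receptor subunit gene, held 23, and Igf2bp2 and Ralgps1, a Ral exchange factor gene, held 22 each. Ankrd55, an ankyrin repeat gene, and Cacnb4, a calcium channel subunit gene, held 19 each. In 6 of these 10 genes a member covered an annotated promoter, 3 had no promoter sequence in the table, and Cd200r3 had none covered. No gene of the 10 had a member with a fold above 3.92.

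Among hosts of at least 20 kb with at least 3 members, density was highest in genes known from several unrelated tissues. Slc25a18, a mitochondrial glutamate carrier gene, held 8 members in 20666 bp, or 38.7 per 100 kb. Ltf held 9 members in 23475 bp, or 38.3 per 100 kb. They began at the promoter and closed up towards the end of the gene, where 5 of them lay between 111033226 and 111042709 of chromosome 9 with folds of 2.41 to 3.27. Masp2, which encodes a protease of the lectin complement pathway, held 8 short members of 348 to 989 bp, all with a fold of at most 2.53. Tns4, an epithelial tensin gene, held 9, and Slc36a3, an amino acid transporter gene, held 10, of which the strongest reached a fold of 4.07. She, an adaptor protein gene, held 10 and Slc12a3, the thiazide-sensitive sodium chloride cotransporter gene of the kidney, held 13. Gm29975, a predicted gene, Scrg1 and Tvp23a completed the 10 densest with 9, 8 and 9. Across all 1512 hosts of at least 20 kb the median was 3.63 per 100 kb (interquartile range 1.67 to 7.36).

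Host share and peak density differed with how far a gene lay from the nearest CM peak. Hosts lay a median of 26557 bp from a CM peak and the other genes 178441 bp. The share of hosts was 64.0% among genes up to 5 kb away, 60.3% from 5 to 20 kb, 44.0% from 20 to 50 kb, 20.4% from 100 to 200 kb and 3.41% beyond 500 kb. The decline was also seen within 1 length class: among genes of 20 to 100 kb the share was 70.3% within 5 kb and 5.48% beyond 500 kb. Short romidepsin peaks in genes with a CM peak and outside genes were also sparser with distance beyond 10 kb. At 2 to 5 kb they numbered 159.7 per Mb in genes without a CM peak, 139.9 in genes with one and 121.9 outside genes. At 5 to 10 kb the values were 126.5, 160.2 and 121.5, with each peak placed by its centre. At 100 to 200 kb the values were 13.9, 27.5 and 12.3 per Mb, and beyond 1000 kb 0.692, 0.90 and 0.155. At a given distance, genes without a CM peak were close to intergenic sequence from 5 to 200 kb, and genes with a CM peak held more from 5 kb on. The last value for genes with a CM peak rests on 2 peaks.

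**Figure D2:**
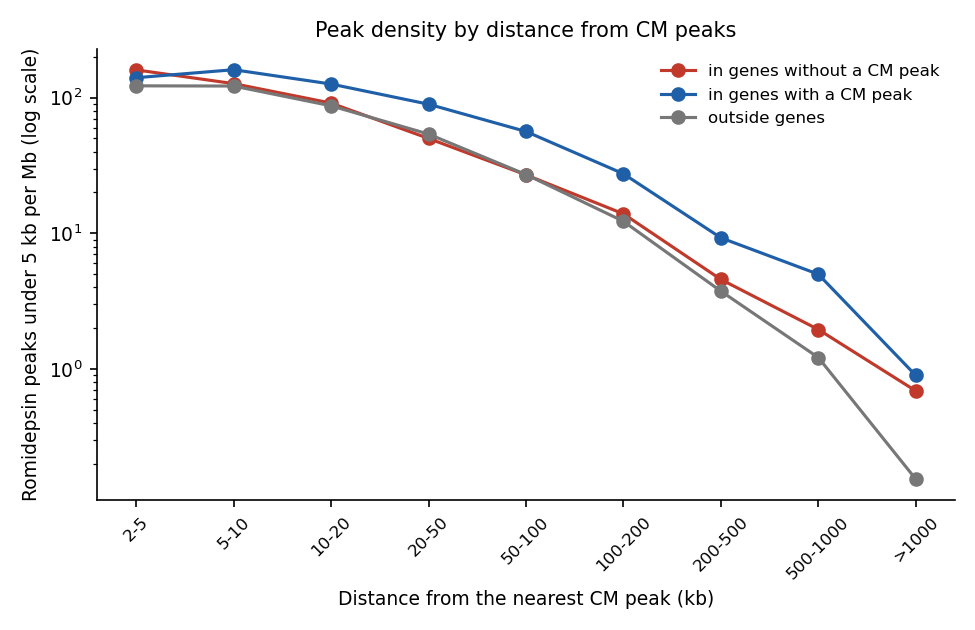
Romidepsin peaks shorter than 5 kb and more than 2 kb from CM peaks, per Mb of sequence at the same distance (log axis), by distance of the peak centre from the nearest CM peak in kb. Lines are genes without a CM peak, genes with one, and sequence outside genes; all fall with distance, from 126.5, 160.2 and 121.5 per Mb at 5 to 10 kb to 0.692, 0.90 and 0.155 beyond 1000 kb.

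Some hosts lay far from any CM peak, and some genes nearer to one held no member. The genes named here were chosen after their values were seen. Only 68 of 1994 genes beyond 500 kb held a member, and 29 of the 169 among them that were longer than 100 kb. Cadm1 led them with 24, followed by Ptprk, a receptor tyrosine phosphatase gene, with 8, and by Efna5, an ephrin ligand gene, and Fhit, with 7 each. Adgrl3, a latrophilin gene 3660929 bp from any CM peak, held 6, and Pcdh7 and Pcdh17, protocadherin genes 3715546 and 2602745 bp away, held 5 and 4. In Efna5, Fhit, Adgrl3 and Pcdh17 a member covered a promoter. In the other direction Kcnip4, a potassium channel partner gene of 1135620 bp, lay 16354 bp from a CM peak and held none. Cdh13, the T-cadherin gene of 1184913 bp, at 19546 bp, and Slc25a21, a mitochondrial carrier gene of 484839 bp, at 14141 bp, also held none. Distance was measured from the edge of the gene. Of 92 genes longer than 100 kb at 5 to 20 kb from a CM peak, 58 were hosts.

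The longest genes held few members. Dmd, the dystrophin gene, spans 2390387 bp and held 1 member of 817 bp, at an annotated promoter inside the gene. Cntnap2, a neuronal adhesion gene of 2241333 bp, held 4, and Nrxn3 and Dpp10, both neuronal, held 1 each. Fhit, a gene at a common fragile site, was the exception with 7 members in 1611970 bp, 2 of its promoters being covered. The 5 longest genes without a CM peak and without a member were Ptprd, Lsamp, Lrp1b, Csmd1 and Robo2, mostly known from the nervous system. Of 155 genes without a CM peak of 500 kb or more, 58 were hosts, 37.4% (interval 29.8 to 45.5) beside 29.2% of all genes without a CM peak. Hdac9, a class IIa deacetylase gene of 869516 bp, held 18, the highest count among these. It was named after its value was seen.

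Members gathered at gene starts and, less steeply, at gene ends. Strand was known for 2762 genes of at least 20 kb without a CM peak, of which 1170 were hosts. The first kb of these genes held 173 members per Mb, the next kb 40.6 and the kb from 9 to 10 kb 16.7. The last kb held 33.3 per Mb, and the kb from 9 to 10 kb before the end 21.4. With gene length divided into 10 equal parts, the first held 22.9% and the last 13.7% of the 3621 members whose centre lay inside, and each of the other 8 held 6.77 to 8.86%. Neighbouring members of a gene were a median of 1822 bp apart (interquartile range 605 to 7634). Exons, introns and untranslated regions were not analysed here.

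**Figure D3:**
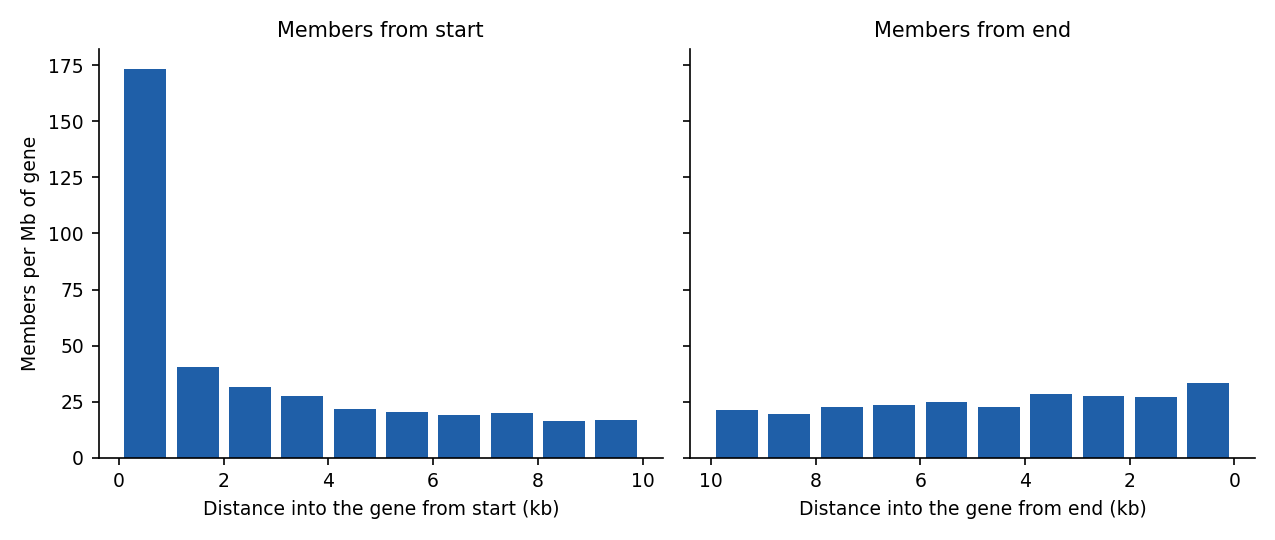
Members per Mb of gene in steps of 1 kb, by distance of the peak centre from the annotated start (left) and end (right), over 2762 genes of at least 20 kb without a CM peak. The first kb holds 173 per Mb and the last kb 33.3, against 16.7 at 9 to 10 kb from the start.

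A member covered an annotated promoter in 1235 of the 7974 genes without a CM peak that had a promoter sequence, or 15.5% (interval 14.7 to 16.3). Among hosts with a promoter sequence the start was covered by a member in 589 of 1135 hosts with 1 member, 249 of 458 with 2 and 396 of 676 with 3 or more. Promoter members were longer and stronger than the rest. Their median length was 1330 bp against 778 bp, their median fold 2.91 against 2.59, and 42.2% against 17.7% reached a fold of at least 3. Among the 595 hosts where only the promoter was covered, no member lay elsewhere in the gene, whereas 1035 hosts had members elsewhere only.

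Promoters under members were CpG-rich, though less so than those of genes that already held a CM peak. The 300 bases from 250 before to 50 after the start held a median of 14 CpG under a member, 6 at other promoters of hosts, 3 in genes without CM peak and without member, and 21 in genes with a CM peak. Median GC content was 59.3, 53.3, 47 and 60.7%. The share of promoters under a member was 2.71% with 0 or 1 CpG, 6.99% with 2 to 4, 14.3% with 5 to 9, 31.0% with 10 to 19 and 40.0% with 20 or more. The order was kept within 50 kb of a CM peak (11.4, 14.8, 20.9, 44.2 and 55.5%) and farther away (0.797, 2.63, 8.26, 18.5 and 28.0%). Promoters with 20 or more CpG beyond 50 kb thus came under members more often than those with 0 or 1 CpG nearby. GC content also moves with read recovery in sequencing, and its part in these shares was not tested. The sequences printed above show both ends of this range, from Igf2bp2 to Ccr3.

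**Figure D4:**
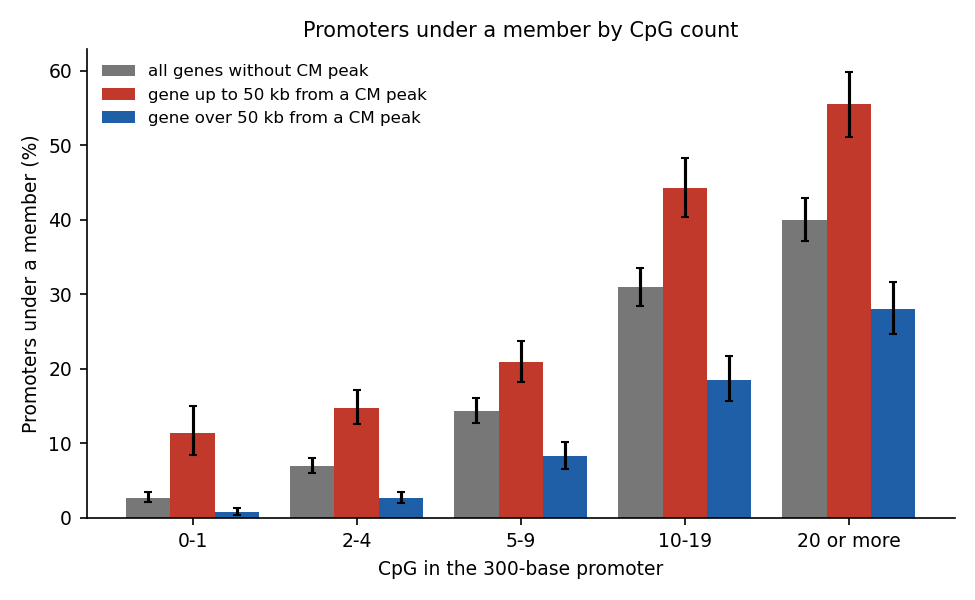
Percent of promoters of genes without a CM peak that lie under a member, by CpG in the 300-base promoter, for all such genes and for those up to and over 50 kb from a CM peak; bars are exact 95% intervals for counting error. From the lowest to the highest CpG class the share goes from 2.71 to 40.0% over all, from 11.4 to 55.5% near CM peaks and from 0.797 to 28.0% farther away.

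Short sequence motifs were counted on both strands of the same 300 bases, and a match describes letters only. The GC box GGGCGG, read by SP/KLF factors, occurred in 54.6% of promoters under a member, 17.3% in genes without CM peak and without member, 62.3% in genes with a CM peak and 35.7% of all promoters of that length. The TATA box TATAAA occurred in 10.2, 23.6, 7.02 and 13.6% of these. The ETS motif CCGGAAGT, common in promoters of housekeeping genes, occurred in 1.81% of promoters under a member, 0.678% in genes without CM peak and without member, 8.35% in genes with a CM peak and 3.89% of all. It contains CpG, as do the GC box, the E-box CACGTG and the cAMP response element TGACGTCA. Their shares are therefore not separate from the CpG counts of these promoter sets. The cAMP response element was found in 1.74, 0.882, 3.15 and 1.79% of the sets. The PU.1-type motif GAGGAAGT occurred in 2.97, 3.29, 3.20 and 3.20%, and the AP-1 motif TGACTCA in 5.57, 6.45, 3.49 and 5.20%. The E-box CACGTG occurred in 7.67, 4.33, 9.94 and 7.15%, and the CCAAT box CCAAT in 32.8, 40.3, 37.7 and 37.4%. For the CCAAT box and the PU.1-type motif, promoters under members stood below those of genes without member and those of genes with a CM peak. For the other motifs they stood between these sets.

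Genes of the myeloid suppressor programme and of the senescence secretome were looked up by name, and these were chosen after values were seen. Nos2, which encodes the inducible nitric oxide synthase through which MDSC restrain T cells, held 6 members (folds 2.44 to 3.07), and its start had no entry in the promoter table. Arg1, the arginase gene, held 1 member of 475 bp with a fold of 2.81, and Ido1, a tryptophan-degrading enzyme gene, held 1. Il10 held none. Among secreted factors, Il6 held 2 members (highest fold 3.54) and Il1a 3 (highest fold 2.98), with the start covered in both. Mmp9 held 4, Mmp13 held 2, Csf2 held 1 and Csf3 none. Cdkn2b, which encodes the cell cycle inhibitor p15, held 1 member of 2247 bp over its promoter with a fold of 4.14. Of genes known from neutrophil granules, Mpo, the myeloperoxidase gene, held 6 members in 10629 bp, Ngp held 2, and Camp and Ctsg held 1 each. These 4 were picked as hosts and give no share of granule genes. S100a9, the marker without a CM peak, held 1 member of 671 bp with a fold of 2.51.

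Among immune gene lists, chemokine and lectin receptor genes were hosts more often than genes of the same length and CM distance classes in the lists as deposited, and the 2 other lists were near that share. Of 45 chemokine and chemokine receptor genes, 23 were hosts (51.1%, interval 35.8 to 66.3), beside 29.2% of all genes without a CM peak and 27.4% of genes in the same classes of length and CM distance. They included Ccr6, a receptor of T helper 17 cells, with 6 members (highest fold 3.48), Ccr3 with 6, Ccr7, the lymph node homing receptor, with 5, and Cxcl9, an interferon-induced chemokine, with 4. Cxcl1, Cxcl5, Ccl17 and Ccl12 held 2 each, and Ccl2, Ccl22, Cxcl3 and Cxcl10 held none. The share depended on the threshold. With a −log10 q of at least 5 in both lists it was 3.64%, below the 17.4% of all genes. This setting also shortens the CM list, so that genes with a weaker listed CM peak count as lacking one. With a fold of at least 3 in the romidepsin list the chemokine share was 24.4%, beside 12.5% of all genes. With as many strongest romidepsin peaks as CM peaks it was 6.67% (interval 1.40 to 18.3), close to the 5.63% of all genes. These shares of all genes were not matched for length and CM distance. C-type lectin and killer lectin receptor genes were hosts in 21 of 43 cases (48.8%, interval 33.3 to 64.5, against 31.4%). Clec4b2 held 6 and Clec2e 4, and many Klra genes, which are closely related copies, held none. Among 52 interleukin and interleukin receptor genes 22 were hosts (42.3% against 39.8%), led by Il2ra, the interleukin 2 receptor gene, and Il12b with 8 each. Il12b is only 14615 bp long, so its density was 54.7 per 100 kb. T, B and NK cell genes were hosts in 15 of 30 cases (50% against 48.0%), among them Cd6, a T cell surface receptor gene, with 7 members.

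Signalling, matrix and transporter genes differed in their host shares. Phosphodiesterase and adenylyl cyclase genes, which make and break cAMP, were hosts in 15 of 19 cases (78.9%, interval 54.4 to 93.9), beside 56.5% in the same length and distance classes, which lies inside that interval. With a −log10 q of at least 5 in both lists, which also shortens the CM list, the share was 22.2%, beside 17.4% of all genes. With a fold of at least 3 in the romidepsin list it was 47.4%, beside 12.5% of all genes. With as many strongest romidepsin peaks as CM peaks it was 15.8% (interval 3.38 to 39.6), beside 5.63%. The share in the same length and distance classes was not recomputed for these settings, so that they do not show an excess over such genes. Adcy3 held 12 members and Pde11a 7, and Pde3a, 623742 bp from a CM peak, held none. Laminin and integrin genes were hosts in 12 of 19 cases (63.2%, interval 38.4 to 83.7), led by Itgad and Itgb8 with 6 each. The 48.7% of their classes lies inside that interval. Collagen genes were hosts in 15 of 41 (36.6%, interval 22.1 to 53.1), beside 50.1% of their length and distance classes, which lies inside that interval. Col4a2 and Col4a1 held 23 and 12 of the 72 member-gene pairs of collagen genes. Solute carrier genes were hosts in 84 of 174 (48.3%), close to the 47.7% of their classes. Slc12a3 with 13 and Slc36a3 with 10 led them.

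Hosts among developmental regulators had a median of 1 member in each list, beside 2 over all hosts. The median was also 1 for hosts in every length class up to 10222 bp. Homeobox genes without a CM peak had a median length of 6125 bp, and the Sox, Fox, Tbx and Gata genes 7027 bp. The Wnt, FGF, BMP and Hedgehog ligand genes were longer, with a median of 15818 bp. In the class of 10224 to 16371 bp the host median was 2. Of 69 genes on the list of Sox, Fox, Tbx and Gata factors 32 were hosts (46.4%, interval 34.3 to 58.8), beside 27.3% of their length and distance classes. Their median was 1 member. The list was not limited to these families. Glis1, a Krüppel-like zinc finger gene on it, held 5 and Tbx21 held 4. Gata2 held 2, over separate annotated starts, at folds of 3.62 and 3.23. Kit, the stem cell factor receptor gene, held 2 and lay 321102 bp from a CM peak, with a 2606 bp member over its start. Homeobox genes were hosts in 33 of 96 cases (34.4% against 26.6%), led by Lhx9 and Hoxb6 with 5 each, and Wnt, FGF, BMP and Hedgehog ligand genes in 26 of 59 (44.1% against 37.6%). Pax5, the B cell master regulator gene, held none.

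Lists of neuronal genes lay on either side of the share in their length and distance classes. For each list named here that share lay inside the list's interval. Synaptic adhesion and scaffold genes were hosts in 16 of 49 cases (32.7%), beside 31.8% of their classes, with Nrxn2 at 13 members and Dscam at 10. Glutamate, GABA and glycine receptor genes were hosts in 10 of 46 (21.7%, interval 10.9 to 36.4, against 34.5%). Axon guidance genes were hosts in 25 of 49 (51.0%, interval 36.3 to 65.6, against 38.0%), led by Ephb2 with 8. Potassium channel genes were hosts in 28 of 72 (38.9% against 41.6%), among which Kcnj10 held 7 in 32876 bp.

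Several large gene families held few members. Of 1110 olfactory receptor genes 12 were hosts (1.08%, interval 0.560 to 1.88), beside 7.1% of their length and distance classes. Of 389 vomeronasal and taste receptor genes 5 were hosts (1.29% against 9.59%), of 103 keratin and keratin-associated genes 5 (4.85% against 11.6%), and of 70 defensin genes none, which by the exact interval allows up to 5.13%. Protocadherin genes were hosts in 4 of 49 cases (8.16%, interval 2.27 to 19.6), and the 18.8% of their classes lies inside that interval. With a −log10 q of at least 5 in both lists the protocadherin share was 29.0%, beside 17.4% of all genes. That setting also shortens the CM list, so that genes with a weaker listed CM peak count as lacking one. With the CM list kept whole, the protocadherin share was 4.08% at a fold of at least 3, beside 12.5%. With as many strongest romidepsin peaks as CM peaks it was 2.04%, beside 5.63%. These shares of all genes were not matched for length and CM distance. Serpin genes were hosts in 16 of 57 cases (28.1%, interval 17.0 to 41.5, against 21.3%). Cytochrome P450 genes were hosts in 19 of 86 (22.1%, interval 13.9 to 32.3, against 27.0%). In both lists the share of their classes lies inside the interval. Olfr1393 held 5 of the 16 olfactory members, and Olfr433 lay wholly inside 1 member of 3467 bp with a fold of 3.49, which does not single out the receptor's own start. Reads from near-identical copies map to several places, and how such reads were treated is not given in the sources used here.

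**Figure D5:**
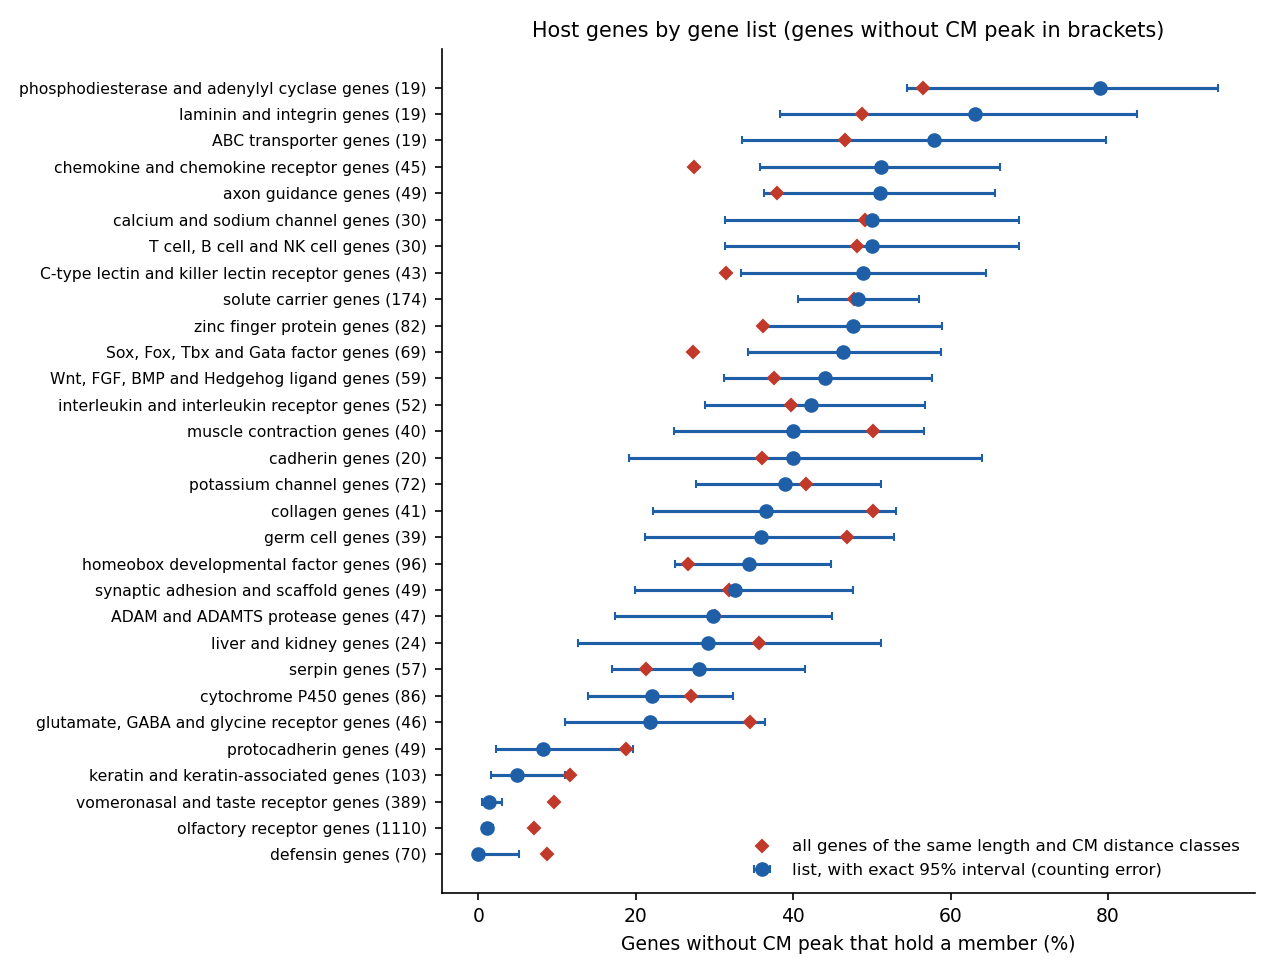
Percent of genes without a CM peak that hold a member, for each list with at least 15 such genes (blue, exact 95% interval for counting error), and for all genes of the same length and CM distance classes (red diamonds). Phosphodiesterase and adenylyl cyclase genes stand highest at 78.9% and defensin, olfactory and vomeronasal genes lowest, at 0, 1.08 and 1.29%.

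Hosts tended to lie among genes that held a CM peak. With no adjoining gene holding a CM peak 10.4% of genes were hosts, 43.1% with 1 such neighbour and 58.8% with 2, though the genes of the first class were also shorter (median 5071 bp against 17340 and 17459 bp). Hosts formed 2360 runs along the chromosomes, of which 1880 were single genes. The longest runs held 6 genes each, from Ffar3 to Hamp on chromosome 7 with 18 member-gene pairs and from Slc17a7 to Tead2 on the same chromosome with 14. The former joins 2 fatty acid receptor genes, the B cell gene Cd22, the myelin gene Mag and the hepcidin genes. By chromosome the share of hosts was highest on 19 (41.7%) and 11 (39.3%). It was 15.7% on X, where genes lay a median of 240324 bp from a CM peak, and on Y 1 of 253 genes was a host.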

How the data were processed

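The submitters' processing notes name Bowtie2 2.4.4 with MACS2 2.2.7.1, deepTools 3.5.1 and build mm10. How the inputs and read filters entered is not given in the sources used here. The authors deposited 1 broad peak list per immunoprecipitated library. Each peak has a score, a fold enrichment ratio, a p-value as −log10 and a q-value as −log10, all as the authors' caller gave them, and used here within a list only. Read depth is unknown.

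Gene spans came from a RefSeq table of GRCm38.p6 (21887 protein-coding genes), and starts, strand and 300-base promoters from a RefSeq promoter table, which does not hold every gene. An overlap was at least 1 bp. Intervals of shares are exact (Clopper-Pearson, 95%) and reflect counting error alone. The rule was tested on simulated peaks. Python 3.11.15, pandas 2.3.3, numpy 2.4.6, scipy 1.17.1 and matplotlib 3.10.9 were used.

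Genes were named as the 10 hosts with the most members, the 10 densest hosts of at least 20 kb with at least 3 members, the 5 highest by fold and by −log10 q, the 5 longest hosts and the 5 longest genes without member, the 2 leading hosts and the longest gene without member of each list, and the peaks nearest the limits. Not all are described, and some are not reported here. The members and the 34 gene lists were chosen with earlier results of these data known. Values by CM distance, CpG class, neighbours and runs were chosen after values were seen. Alternatives covered peak strength, distance, margin, length, merging, overlap and chromosomes.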

Additional observations from a re-analysis of the deposited data

How the results depend on the processing

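No paired analysis was possible because each condition had 1 library with a file and no result came from a test. The counts depended most on the strength asked of a peak. Members numbered 2569 with a −log10 q of at least 5 in both lists, 1621 with a fold of at least 3 in the romidepsin list and 603 with as many strongest romidepsin peaks as CM peaks, and hosts numbered 2579, 1267 and 572. Under the other 9 settings members numbered 5116 to 7760. The share of genes without a CM peak that were hosts was 17.4, 12.5 and 5.63% in those 3 settings. It was 28.1% beyond 5 kb from CM peaks, 24.6% with a 10 kb margin around genes, 26.3% for peaks shorter than 2 kb, 26.7% with neighbouring peaks merged, 26.9% with most of the peak inside the gene and 27.9% where every gene touched lacked a CM peak. The median members per 100 kb were 3.99, 4.99 and 4.49 in the first 3 settings, 7.68 with the wider margin, 8.16 for peaks shorter than 2 kb and 6.87 after merging. The median per host was 1 in these 6 settings and 2 in the other 6. Fewer peaks are left by construction under a stricter threshold, and a stricter CM list also admits more genes. For results added after values were seen, the host share was lower beyond 500 kb from CM peaks than at 5 to 20 kb in all 12 settings (0.351 to 5.47% against 13.1 to 61.2%), and promoters with 20 or more CpG exceeded those with 0 or 1 in all 12 (10.2 to 41.0% against 0.0934 to 2.94%). Chemokine genes ranged from 3.64 to 57.8%, phosphodiesterase and adenylyl cyclase genes from 15.8 to 81.0% and protocadherin genes from 2.04 to 29.0%. Other gene lists were not recomputed. Depth, which is unknown, limits every count of peaks and every gene counted as lacking a CM peak.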
